A study of Mus musculus with 8 samples.

Results

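The genes described here carry the names of the proteasome's subunits, its activators and the chaperones that help to build it. They were taken from the deposited count table as all symbols that start with Psma, Psmb, Psmc, Psmd, Psme or Psmg followed by a digit and that had 10 or more counts in at least 4 libraries. Of 49 such symbols among 17823 genes, 48 met the count rule. Psmb11, the catalytic subunit of the thymus proteasome, was left out with 13 counts in all 8 libraries together and at most 3 in any of them. Just inside the rule were Psmc3ip, with 18 to 62 counts per library, and Psma8, with 23 to 81. The 48 genes fall into 14 subunits of the core particle, 3 catalytic subunits of the immunoproteasome, 17 subunits of the regulatory particle, 5 activators, 7 assembly chaperones and 2 others. The 2 others are Psma8, an alpha subunit known from testis, and Psmc3ip, which is named after a proteasome subunit but acts in meiotic recombination. All 48 were among the 12610 genes tested.

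The RNA came from C57BL/6 bone-marrow-derived macrophages, cells that the growth factor M-CSF (20 ng, 7 days) matures from marrow, after stimulation by LPS at 1 µg/ml. LPS is the bacterial lipid that activates Toll-like receptor 4. Both groups share this culture and treatment and differ in the state of a tdTomato (tdT) reporter of the cytokine gene Il19, positive in 4 libraries and negative in 4. The design addresses how macrophages with an active Il19 reporter differ from those without. The titles number the libraries 1 to 4 in each group. Libraries of 1 number varied together across genes, least clearly in number 2, so differences are also given within each number. Not given in the sources used here were the way the cells were separated, the time in LPS and whether a number marks a mouse or a day. The p-values therefore measure the spread between these libraries, which may be technical.

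The proteasome degrades proteins tagged with ubiquitin and yields most of the peptides presented on MHC class I. Its core particle is a barrel of alpha and beta rings in which 3 beta subunits, Psmb5, Psmb6 and Psmb7, carry the active sites. Interferon and inflammatory signals induce Psmb8, Psmb9 and Psmb10, which replace these 3 in newly made particles to form the immunoproteasome, common in macrophages and other immune cells. The regulatory particle caps the barrel: its base of ATPases (Psmc genes) unfolds substrates and its lid removes ubiquitin. PA28, made of Psme1 and Psme2, is an alternative cap that is also induced by interferon.

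Stretches of DNA before an annotated start of 4 of these genes hold matches to motifs that textbook accounts attach to proteasome or interferon-induced genes. They are from RefSeq (GRCm38.p6), with matches to a searched motif in capitals. TGACNNNGC is the core of the antioxidant response element, bound among others by Nfe2l1, the factor that raises proteasome genes when proteasome activity is short. Psmb5 (chr14:54618023-54618245, minus strand) and Psmb6 (chr11:70525107-70525356, plus strand) encode constitutive catalytic subunits. The Psmb6 stretch precedes an annotated start but runs past 70525324, the first base of the gene's interval given below. Its match therefore lies inside that interval and not before it. Each of these stretches has a match close to an annotated start:
Psmb5: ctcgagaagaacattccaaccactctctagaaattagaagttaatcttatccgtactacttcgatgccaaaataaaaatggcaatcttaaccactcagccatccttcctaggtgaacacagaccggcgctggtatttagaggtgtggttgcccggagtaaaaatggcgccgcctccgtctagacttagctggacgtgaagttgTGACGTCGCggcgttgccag
Psmb6: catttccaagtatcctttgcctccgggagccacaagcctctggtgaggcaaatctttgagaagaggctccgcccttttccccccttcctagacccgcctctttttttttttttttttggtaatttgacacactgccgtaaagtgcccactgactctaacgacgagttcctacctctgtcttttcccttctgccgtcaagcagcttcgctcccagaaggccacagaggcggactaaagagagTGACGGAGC
TTCNNNGAA is the GAS element of interferon-induced genes. Psmb8, an immunoproteasome gene, has a match at chr17:34198088-34198116 (plus strand), and Psmg1, the chaperone gene that edgeR's fit with the replicate block called (below), has one within chr16:95990961-95991210 (minus strand). The stretch before Psmb8 lies in an annotated exon, so the match is shown with 10 bases on each side only:
Psmb8: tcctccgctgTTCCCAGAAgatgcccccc
Psmg1: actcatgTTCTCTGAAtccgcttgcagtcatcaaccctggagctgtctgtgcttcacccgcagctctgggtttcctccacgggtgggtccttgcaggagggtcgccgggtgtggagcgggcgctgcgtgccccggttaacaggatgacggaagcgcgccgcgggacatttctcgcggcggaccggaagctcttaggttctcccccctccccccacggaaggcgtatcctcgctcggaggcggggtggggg
Of the 48 genes, 40 matched an entry with the 250 bases before a start, and Psma8, Psmb1, Psmb2, Psmb7, Psmc3, Psmd3, Psmd7 and Psmg2 did not. Both strands were searched, and a gene with several starts counted once if any of them had a match. TGACNNNGC was found in 5 of the 40, against 11.5% of the 27025 genes with such an entry, and TTCNNNGAA in 2, against 8.13%. The paired GAAA core of the interferon-stimulated response element was found in 3 of 40 (Psmb3, Psmd4 and Psmd9), against 3.46%, and the CCAAT box, bound by NF-Y, in 14 of 40, against 37.5%. A match is a run of letters in these windows and was not tested for binding.

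The 8 libraries held 49850537 to 58516454 counts over genes, and proteasome genes took 0.657% to 0.865% of them. Il19, whose reporter defines the groups, was at 145 to 234 CPM (counts scaled to a common library size) in the tdT-positive and 9.17 to 17 CPM in the tdT-negative libraries. Macrophage markers were abundant in both groups, with 7 of 7 tested, and summed to 9197 to 12251 CPM with tdT and 8368 to 12942 CPM without it. With the replicate block 1 of the 7, Mertk, was higher in the tdT-positive libraries (log2 fold change 0.73, edgeR, adjusted p = 0.0109). Most tested markers of stromal cells, neutrophils, monocytes and osteoclasts were lower there. The 7 stromal markers summed to 48.1 to 121 CPM with tdT and 198 to 2011 CPM without it, the 6 neutrophil markers to 3.18 to 6.81 and 14.1 to 273 CPM, the 4 monocyte markers to 6.26 to 7.45 and 28.0 to 164 CPM, and the 4 osteoclast markers to 52.1 to 109 and 73.2 to 1325 CPM. With the replicate block 5 of 6 tested stromal, 3 of 4 neutrophil, 3 of 4 monocyte and 3 of 4 osteoclast markers were lower in the tdT-positive libraries. In that fit 7.81% of all genes passed as lower and 8.03% as higher. The 5 lymphocyte markers, of cells that are rich in immunoproteasome, summed to at most 0.185 CPM. No marker was at 0 in all libraries. tdT-negative replicate 4 stood apart with the highest stromal and osteoclast sums and the lowest neutrophil and monocyte sums of its group, and tdT-positive replicate 3 with 141822 CPM of the ribosomal RNA gene Rn45s. In such bulk samples fewer cells of a type and less RNA per cell cannot be told apart. The part of these cells in the results below was not tested.

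Levels of the proteasome genes were unequal, and those of most core, immunoproteasome and regulatory particle genes were high. Per kilobase of gene length, the mean over the 8 libraries was highest for Psma6, an alpha subunit, at 480 CPM per kilobase, followed by Psmb8 at 408, Psme2b at 317 and Psme1 at 259. The libraries of Psma6 (365 to 621 CPM per kilobase) and Psmb8 (284 to 596) overlapped, so their order is not beyond the spread. Core subunits, of which each particle needs equal numbers, ranged from 10.8 (Psma3) to 480 CPM per kilobase with a median of 152, and the regulatory particle from 55.4 (Psmd11) to 145 (Psmd8) with a median of 103. Assembly chaperones were lower, between 8.45 (Psmg2) and 47.3 (Psmd10). Psma8 and Psmc3ip were lowest, at 0.508 and 0.732 CPM per kilobase. The median over all genes tested was 6.58. Named pseudogenes exist for Psma5, Psmb5, Psmb6 and Psmb7 in RefSeq, and Psme2b is a near-identical copy of Psme2, so the counts of these 6 genes are uncertain in how reads were shared with copies.

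No proteasome gene passed an adjusted p under 0.05 between tdT-positive and tdT-negative libraries in edgeR's quasi-likelihood test with the group as the only term, where 0.0238% of the genes tested passed, 0.0159% as lower and 0.00793% as higher. At an unadjusted p under 0.05 there was 1, Psma2, against 16.3% of all genes. DESeq2's Wald test and limma voom called 0 of the 48 as well, where they called 4.71% and 0.0159% of all genes as lower. With the replicate number as a block, 1 of 48 passed, Psmg1, and it was lower. In that fit 15.8% of all genes passed, 7.81% as lower and 8.03% as higher, so the share among the 48 was below the background. DESeq2's Wald test with the block called 6 of the 48 as lower (Psma2, Psmb8, Psmd10, Psme2, Psme2b and Psmg1), against 9.9% of all genes. On simulated counts, edgeR called 0 of 100 genes changed by 0.3 on the log2 scale without the block, and 12 with it. A gene that was not called is therefore not shown to be unchanged. The median log2 fold change, tdT positive over tdT negative, was -0.13 over the 48 genes and -0.00024 over all genes tested, and 39 of the 48 values were below 0.

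Differences within the numbers were mostly negative in numbers 1, 2 and 3 and mostly positive in number 4. In numbers 1, 2 and 3 the tdT-positive library had the lower value for 44, 44 and 39 of the 48 genes, with a median log2 difference of -0.15, -0.16 and -0.28. In number 4 it had the higher value for 38, against 57% of all genes tested, with a median of 0.15. All 3 of the first numbers were lower for 35 of the 48 genes, against 29.4% of all genes, and 30 of the 48 were also higher in number 4, against 9.82%. All 4 numbers were lower for 5 of the 48 (Psma3, Psmb8, Psmb9, Psmd10 and Psmg1), against 19.6% of all genes, and higher for 0, against 21.9%. The median over all genes tested lay between -0.017 and 0.059 in the 4 numbers. When libraries were scaled by their totals, the median over the 48 genes was -0.15, -0.15, -0.47 and 0.0079 in numbers 1 to 4. Under that scaling the median over all genes tested was -0.19 in number 3 and -0.081 in number 4. Within the tdT-negative group, replicate 4 had the lowest level of 35 of the 48 genes, against 4103 of the 12610 genes tested. Replicate 3 had the highest level of all 8 libraries for 27 of the 48, against 2375 of the 12610. Replicate 4 is the library with 1325 CPM of osteoclast and 2011 CPM of stromal markers.

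**Figure D1:**
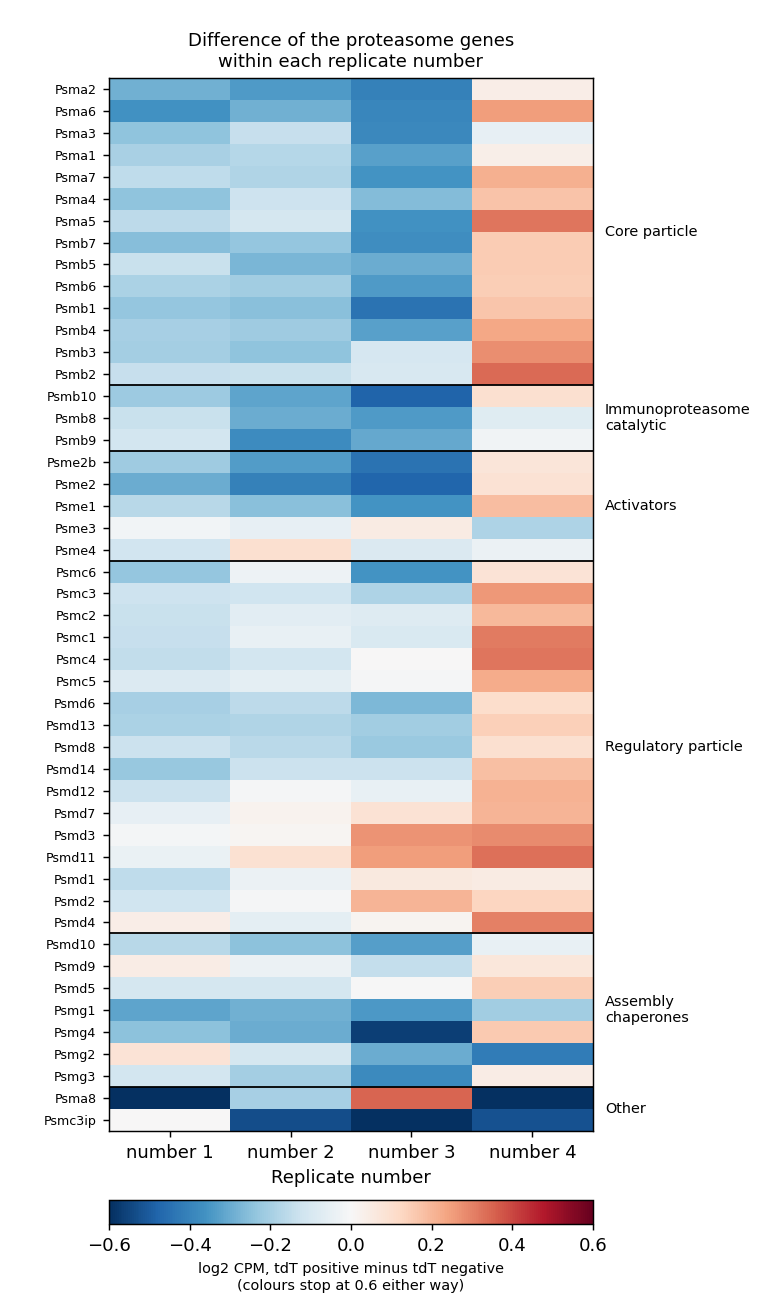
Difference of log2 CPM (tdT positive minus tdT negative) for each of the 48 genes, in rows grouped by role, within each replicate number, in columns. Blue is lower and red higher in the tdT-positive library. The core and immunoproteasome rows are blue in numbers 1 to 3, and all but 3 of these 17 are red in number 4, whereas several regulatory particle rows are pale in numbers 2 and 3.

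Leaving out number 4 changed the calls. With 3 numbers and the block, 18 of the 48 genes passed, all of them lower, where 10.4% of all genes passed as lower, 9.82% as higher and 20.2% in either direction. They were 9 of 14 core subunits (Psma1, Psma2, Psma3, Psma6, Psmb1, Psmb4, Psmb5, Psmb6 and Psmb7), 3 of 3 immunoproteasome subunits, Psme1, Psme2 and Psme2b of 5 activators, and Psmd10, Psmg1 and Psmg4 of 7 chaperones. None of the 17 regulatory particle genes passed in edgeR's test in this fit. The median log2 fold change was -0.23 for the core, -0.25 for the immunoproteasome, -0.071 for the regulatory particle and 0.010 over all genes tested. With number 1, 2 or 3 left out in place of number 4, no proteasome gene passed, where 4.72%, 2.01% and 0.993% of all genes passed as lower. When each library was also corrected for length and base composition of the genes, 2 of the 18, Psmb10 and Psme2, passed without number 4, where 10.1% of all genes passed as lower. With all 4 numbers and that correction 0 passed, where 7.25% of all genes passed as lower.

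In the core particle, all 14 genes were lower in the tdT-positive library of numbers 1, 2 and 3, and 13 of the 14 were higher in number 4. The median log2 difference was -0.20, -0.21 and -0.35 in the first 3 numbers and 0.17 in number 4, and the fitted median over the groups was -0.15 (range -0.25 to -0.010). None passed the test, in either fit with all libraries.

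Among the alpha subunits, which form the outer rings and the gate of the barrel, Psma6 was the most abundant. Replicates 1 to 4 had 532, 466, 475 and 479 CPM with tdT and 685, 569, 623 and 402 CPM without it. The tdT-positive values sit within a narrow band, with tdT-negative replicate 4 below all of them and the other 3 tdT-negative replicates above all. Its log2 fold change was -0.22 (SE 0.16, edgeR, adjusted p = 0.565), and -0.34 (SE 0.069, adjusted p = 0.0121) with the block and without number 4. With number 1, 2 or 3 left out instead, Psma6 did not pass. Psma2 had 166, 148, 165 and 170.3 CPM with tdT and 203, 187, 218 and 165 CPM without it. Only tdT-negative replicate 4 lies among the tdT-positive values, and the exact permutation p of its CPM was 0.0857 (two-sided). The log2 fold change of Psma2 was -0.25 (SE 0.11, edgeR, adjusted p = 0.285) and -0.33 without number 4 and with the block (adjusted p = 0.0102). With number 1, 2 or 3 left out instead, the adjusted p of Psma2 was 0.239, 0.230 and 0.195 (edgeR with the block). Psma3, the core subunit with the lowest level, had 23.0 to 25.2 CPM with tdT and 23.8 to 31.9 CPM without it, and it was the core gene that was lower in all 4 numbers.

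The structural beta subunits Psmb1, Psmb2, Psmb3 and Psmb4 hold the inner rings together and have no active site. Psmb4, the most abundant of them, had 224, 215, 242 and 238 CPM in replicates 1 to 4 with tdT and 257, 249.6, 303 and 202 CPM in those without it. Here too tdT-negative replicate 4 was the lowest of all 8 libraries and replicate 3 the highest. The log2 fold change was -0.14 (SE 0.13, edgeR, adjusted p = 0.662). Psmb3, the least abundant, had 54.3 to 78.8 CPM with tdT and 51.4 to 84.4 CPM without it, so the first range lay within the second (log2 fold change -0.074).

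The constitutive catalytic subunits had the pattern of the rest of the core. Psmb5 (chr14:54614120-54617995), which carries the chymotrypsin-like activity, had 99.0, 95.9, 125 and 97.2 CPM in tdT-positive replicates 1 to 4 and 109, 116, 153 and 87.4 CPM in their tdT-negative counterparts. Both libraries of number 3 were the highest of their groups. Psmb6 (chr11:70525324-70527858), with the caspase-like activity, was at 183, 184, 189 and 239 CPM and at 208, 212, 240.1 and 216 CPM. Number 4 held the highest tdT-positive value of Psmb6, and it overlapped with the tdT-negative group. Psmb7 (chr2:38588046-38643952), with the trypsin-like activity, was at 134, 132, 132 and 153 CPM and at 160.2, 155, 171 and 138 CPM. For Psmb7 only number 4 makes the groups overlap (two-sided exact permutation p = 0.0571). The log2 fold changes were -0.16 for Psmb5, -0.14 for Psmb6 and -0.18 for Psmb7, each with an SE between 0.096 and 0.17, and none passed in edgeR's test.

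The immunoproteasome subunits were lower in the tdT-positive library of numbers 1, 2 and 3 as well, and close to equal in number 4. Psmb8 (Lmp7, chr17:34198195-34201454), the replacement of Psmb5, had 526, 393, 576 and 347 CPM in replicates 1 to 4 with tdT and 578, 484, 728 and 365 CPM in those without it. The tdT-negative library was the higher one in all 4 numbers, but the numbers differed more than the groups, and the groups overlapped. Its log2 fold change was -0.23 (SE 0.24, edgeR, adjusted p = 0.716), and with the block -0.21 (SE 0.073, adjusted p = 0.0924). Psmb9 (Lmp2, chr17:34182030-34187330), the replacement of Psmb6 and a neighbour of Psmb8 in the MHC region, was at 88.7, 59.4, 89.4 and 65.4 CPM and at 95.8, 77.1, 111 and 66.4 CPM, again lower in 4 of 4 numbers. Psmb10 (Mecl1, chr8:105935728-105938392), the replacement of Psmb7, was at 215, 155, 188 and 155 CPM and at 250.2, 193, 262 and 145 CPM, lower in 3 of 4. The log2 fold changes of Psmb9 and Psmb10 were -0.21 (SE 0.19) and -0.26 (SE 0.20) in edgeR's fit, with adjusted p of 0.665 and 0.591.

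**Figure D2:**
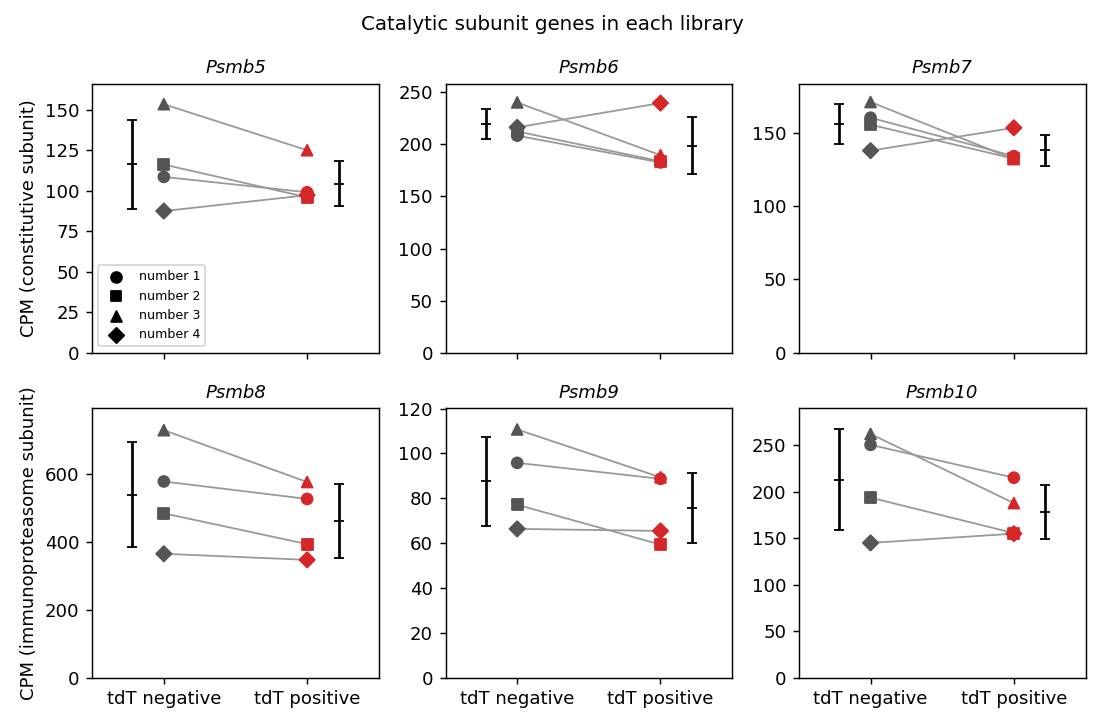
CPM of the 3 constitutive (top) and 3 immunoproteasome (bottom) catalytic subunit genes in each library, with lines joining libraries of the same number and bars for the mean and SD of the 4 libraries of a group. In numbers 1 to 3 every line falls from tdT negative to tdT positive, and the number 4 line rises for Psmb5, Psmb6, Psmb7 and Psmb10.

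The balance between both kinds of catalytic subunit, which does not depend on how libraries are scaled, was similar in the groups and varied between numbers. Per kilobase, Psmb8 was 3.78, 2.92, 3.28 and 2.54 times as abundant as Psmb5 in tdT-positive replicates 1 to 4, and 3.79, 2.97, 3.38 and 2.97 times in the tdT-negative ones. The ratio was lower in the tdT-positive library of all 4 numbers, with log2 differences of -0.0027, -0.024 and -0.043 in numbers 1 to 3 and -0.23 in number 4. Psmb9 reached 0.625, 0.415, 0.606 and 0.351 of the level of Psmb6 in tdT-positive libraries and 0.591, 0.467, 0.593 and 0.394 in tdT-negative ones, higher in 2 numbers and lower in the other two. For Psmb10 over Psmb7 the means were 0.993 ± 0.200 (SD, n = 4) and 1.03 ± 0.186. All 3 ratios had their lowest value in tdT-positive replicate 4 and were higher in numbers 1 and 3 than in numbers 2 and 4. Psmb5, Psmb6 and Psmb7 have named pseudogenes, and the 3 immunoproteasome genes do not. The size of these ratios is therefore uncertain in how reads were shared with copies.

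The genes of PA28 had the signs of the core particle. Psme1 (PA28 alpha, chr14:55578494-55581527) had 288, 219, 238 and 209.7 CPM in replicates 1 to 4 with tdT and 323, 261, 305 and 185 CPM in those without it. Psme2 (PA28 beta, chr14:55587440-55591101) was at 188, 142, 202 and 146 CPM and at 231, 187, 281 and 138 CPM. Both were lower in numbers 1, 2 and 3 and higher in number 4, with overlapping groups. With all libraries their log2 fold changes were -0.17 (SE 0.18) and -0.31 (SE 0.22, edgeR, adjusted p = 0.559). Without number 4 and with the block, Psme2 fell by 0.38 on the log2 scale (SE 0.068, edgeR, adjusted p = 0.00729), and it was 1 of the 2 genes that also passed with the length and base composition corrected. Psme2b, the copy on chromosome 11, ranked the 8 libraries in the same order as Psme2, with at most 356 CPM with tdT and 483 CPM without it. The activators that act in the nucleus had values near equality. Psme3 (PA28 gamma) had 87.8 to 100.4 CPM with tdT and 95.1 to 99.9 CPM without it, a log2 fold change of -0.049. Psme4 (PA200) was at 229, 231, 160 and 185 CPM and at 247, 216, 169.6 and 189 CPM, lowest in number 3 in both groups (log2 fold change -0.032).

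The 17 regulatory particle genes had a median log2 fold change of 0.0022 (range -0.14 to 0.17), 8 of them below 0. The median was -0.0021 with DESeq2's size factors, -0.030 with upper-quartile scaling and -0.064 with library totals, and none of the 17 passed in either fit with all libraries. The tdT-positive library was lower for 16, 14 and 10 of the 17 genes in numbers 1, 2 and 3, and for none of them in number 4, where the median difference was 0.20. Among the ATPases of the base, Psmc1, the one with the highest level, had 192, 189, 187 and 196 CPM in replicates 1 to 4 with tdT and 211, 194, 199.6 and 158 CPM in those without it. Its group means were 191 ± 3.97 and 191 ± 22.8 CPM (SD, n = 4). Apart from tdT-negative replicate 4 all of its values lay between 187 and 211 CPM. Psmc6, the ATPase with the lowest level, had 123 to 156 CPM with tdT and 139 to 158 CPM without it (log2 fold change -0.13, SE 0.096).

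Psmd2, a scaffold of the base where ubiquitin receptors dock, had 419.9, 457, 471 and 417 CPM in replicates 1 to 4 with tdT and 456, 459.6, 408 and 382 CPM in those without it. Its sign differed between numbers, negative in numbers 1 and 2 and positive in numbers 3 and 4, and the log2 fold change was 0.049 (SE 0.10). Psmd1, its partner scaffold, had 267 to 292 CPM and 264 to 299 CPM. In the lid, Psmd8 was at 206, 197, 196 and 249 CPM and at 225, 220.2, 229 and 233 CPM, and Psmd11 at 90.3, 97.5, 90.0 and 131 CPM and at 92.8, 91.4, 75.5 and 104 CPM. Psmd11 had the highest log2 fold change of the 48 genes, 0.17 (SE 0.15, edgeR, adjusted p = 0.644), with overlapping groups.

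The level of the core particle relative to the regulatory particle, a ratio of geometric means within a library, was lower in the tdT-positive library of all 4 numbers. It was 1.19, 1.12, 1.21 and 1.18 in tdT-positive replicates 1 to 4 and 1.27, 1.24, 1.46 and 1.20 in the tdT-negative ones. The means were 1.17 ± 0.0370 and 1.29 ± 0.116 (SD, n = 4). The log2 difference was -0.093, -0.15, -0.28 and -0.025 in numbers 1 to 4, so that number 4 was near equality. This ratio was chosen after the values had been seen and carries no test.

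**Figure D3:**
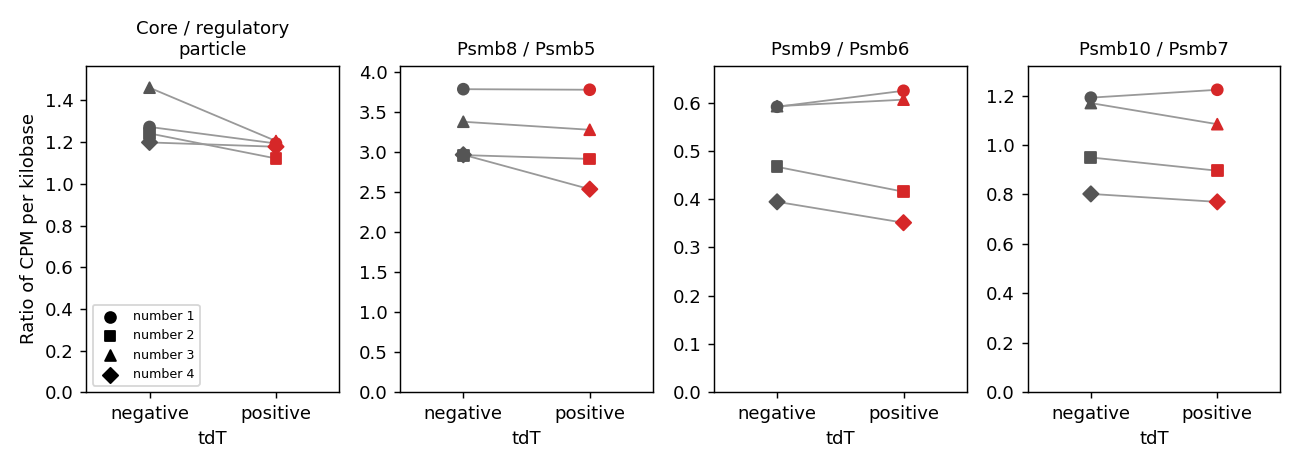
Ratios of CPM per kilobase within each library, for the core over the regulatory particle (geometric means of 14 and 17 genes) and for each immunoproteasome subunit over the constitutive subunit it replaces. Lines join libraries of the same number. The core ratio is lower at the tdT-positive end of all 4 lines, and the ratios of catalytic subunits differ more between numbers than between groups.

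Core and immunoproteasome transcripts are shorter than those of the regulatory particle, and other genes as short had negative medians as well. The median gene length was 1036 bases for the core, 1223 for the immunoproteasome and 1564 for the regulatory particle. The core reaches 2398 bases through Psma3, and its next longest gene, Psma7, has 1591. Its full range therefore runs far past most core genes, which fall in the range of the immunoproteasome. The 4379 other tested genes of 731 to 2398 bases, the range of the core, had a median log2 fold change of -0.063, and the 981 of 806 to 1270 bases, the range of the immunoproteasome, one of -0.12. The latter was -0.072, -0.18, -0.29 and 0.073 in numbers 1 to 4, positive in number 4 as for the core. The 5523 others in the range of the regulatory particle, 1277 to 3256 bases, had -0.019. With the block and without number 4, the other genes in these 3 ranges had medians of -0.079, -0.17 and -0.022. The core, immunoproteasome and regulatory particle genes had -0.23, -0.25 and -0.071 in that fit. With the block, correcting for length and base composition took the median of the core from -0.14 to -0.027, of the immunoproteasome from -0.21 to -0.12 and of the regulatory particle from 0.0083 to 0.066. The part of gene length in the difference between core and regulatory particle was not tested beyond this.

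**Figure D4:**
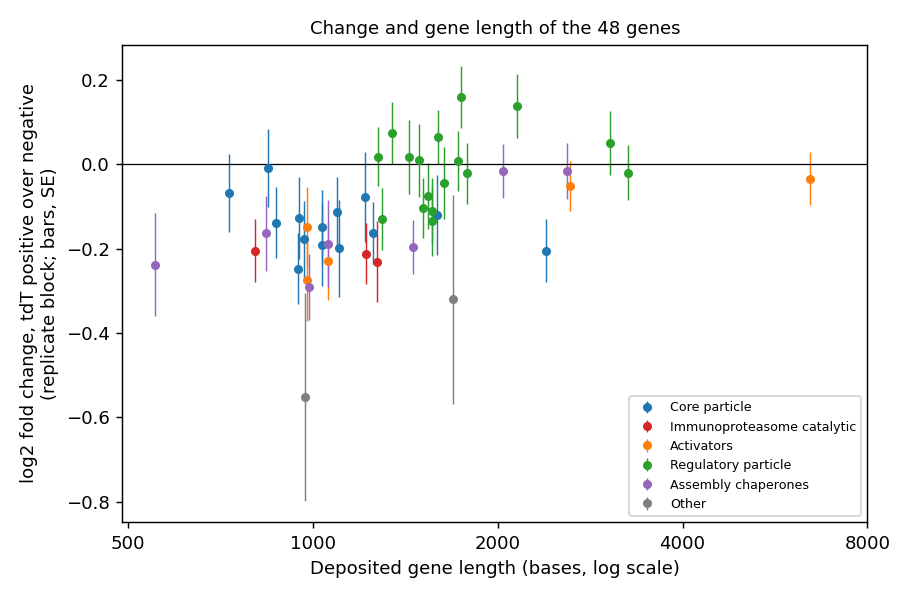
Log2 fold change (tdT positive over tdT negative, edgeR with the replicate block, bars for the SE) of each of the 48 genes against its deposited length on a log scale, coloured by role. Most core and immunoproteasome genes lie below 0 at lengths of 731 to 1270 bases, and the regulatory particle genes lie on both sides of 0 at 1277 bases and above.

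The assembly chaperones, which guide subunits into the particle and then leave, included the only gene called by edgeR's blocked fit with the scaling used throughout. Psmg1, which with Psmg2 helps to form the alpha ring, had 7.06, 6.97, 11.6 and 7.55 CPM in replicates 1 to 4 with tdT and 8.79, 8.51, 14.8 and 8.73 CPM in those without it. It was lower in the tdT-positive library of all 4 numbers, and number 3 was the highest in both groups. With the block it fell by 0.29 on the log2 scale (SE 0.078, edgeR, adjusted p = 0.0458), but it did not pass without the block (adjusted p = 0.599), without number 1, 2 or 3 (0.161, 0.157 and 0.111), or with the length and base composition corrected (0.167). Psmg2, its partner, was at 7.49 to 9.30 and 7.87 to 11.5 CPM and was lower in 3 of 4 numbers (log2 fold change -0.20, SE 0.15). Psmg4 was at 8.12 to 9.92 and 8.90 to 13.2 CPM (log2 fold change -0.25, SE 0.14).

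Psmd10 (gankyrin), a chaperone of the base that also binds cell-cycle proteins, was the only one of the 48 genes whose groups did not overlap. It had 64.4, 58.9, 67.60 and 65.6 CPM in replicates 1 to 4 with tdT and 72.3, 69.9, 85.0 and 67.61 CPM in those without it. The lowest tdT-negative value, in replicate 4, nearly equalled the highest tdT-positive one, in replicate 3. The exact permutation p of its CPM was 0.0286 (two-sided), the smallest that 70 splits allow. That p follows from the lack of overlap and adds nothing to it. The splits, here and above, ignore the replicate numbers. Of all genes tested, 5.92% were lower and 5.46% higher without overlap. Its log2 fold change was -0.20 in edgeR's test without the block (SE 0.092, adjusted p = 0.330) and with it (SE 0.064, adjusted p = 0.0812). It passed as lower with the block under upper-quartile scaling (adjusted p = 0.0461), where 9.23% of all genes passed as lower. Psmd9, another chaperone of the base, was at 21.3 to 25.2 and 20.3 to 27.8 CPM (log2 fold change -0.023). Psma8 and Psmc3ip had log2 fold changes of -0.30 (SE 0.33) and -0.54 (SE 0.28) at under 2 CPM in every library, and neither passed.

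Of 25 tested genes of a list of other proteasome pathway factors, 2 rose with the block, where 8.03% of all genes passed as higher. None of the 25 passed without the block. The median log2 fold change of the list was -0.038. Ddi2, the protease that activates Nfe2l1, had 74.5 ± 2.58 CPM with tdT and 60.7 ± 5.67 CPM without it (SD, n = 4) and rose by 0.30 on the log2 scale (SE 0.065, edgeR with the block, adjusted p = 0.0246). Zfand2a, which binds the proteasome under arsenite stress, was at 65.7 ± 3.34 and 56.5 ± 3.86 CPM and rose by 0.22 (adjusted p = 0.0347 in the same fit). Ddi2 did not pass without number 2 or 3, and Zfand2a did not pass without number 1, 2 or 3 or with the block and library totals (0.14). For both genes the groups did not overlap, where 5.46% of all genes tested were higher without overlap. Nfe2l1 itself averaged 403 CPM with tdT and 377 CPM without it and did not pass. Pomp, the chaperone that closes the core particle, was at 131 ± 3.58 and 157 ± 32.1 CPM and passed as lower only without number 4 (-0.32, edgeR with the block, adjusted p = 0.0251).

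Of 10 genes that interferon induces together with the immunoproteasome for antigen presentation, 1 rose with the block, where 8.03% of all genes passed as higher. None of the 10 passed without the block, and their median log2 fold change was -0.012. Nlrc5, the activator of MHC class I genes, had 201 ± 33.8 CPM with tdT and 156 ± 29.3 CPM without it (SD, n = 4) and rose by 0.37 on the log2 scale (SE 0.067, edgeR with the block, adjusted p = 0.0156). It was higher in all 4 numbers, with overlapping groups. It did not pass without number 2 or 3, or with the length and base composition corrected, where its log2 fold change was 0.24. Tap1, the peptide transporter gene beside Psmb9, averaged 539.9 CPM with tdT and 544 CPM without it, a log2 fold change of -0.012 where Psmb9 had -0.21, and the difference between both genes was not tested.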

How the data were processed

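Bulk polyadenylated RNA of 8 libraries was measured. Each library took 220 ng of RNA through a stranded kit, per the labels' protocols. The authors deposited raw counts, whole numbers per gene, beside gene lengths in bases. CPM are counts per 1e+06 after scaling. STAR and mm10 are named, per the submitters' processing notes. Not given in the sources used here were STAR's version, the counter, the annotation and its strandedness. Genes that overlap, antisense genes and close copies are therefore uncertain. Column names were matched to sample descriptions, and groups and numbers were taken from the titles. No library repeated another (chi-square per degree of freedom between libraries of a group of 54.0 to 759, over genes with a summed count of at least 20).

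Genes were filtered with edgeR 4.0.16 (minimum count 10, minimum total 15), scaled by trimmed mean of M values and tested with its quasi-likelihood test, group as the only term, with Benjamini-Hochberg adjustment over all 12610 genes and a threshold of 0.05. Differences within a number are of log2 CPM with a prior count of 2. The pairing was checked on deviations from group means, whose correlation within numbers 1 to 4 was 0.63, 0.28, 0.62 and 0.56. Each was higher than with another number, but in number 2 only narrowly (0.28 against 0.23). The blocked fit is therefore printed where it changes a call. A shared number is known from the titles only. The members, the lists and the rule for named genes (every gene that passed in either fit, the 6 catalytic subunits, and the members of each class with the highest and lowest level) were chosen with earlier results of these data known. Psma2, Psma3, Psmc3ip, Psme2b, Pomp, Nfe2l1, Tap1 and Mertk were named after their values were seen. Alternatives used DESeq2 1.42.0, limma 3.58.1, other scalings and filters, and left out each library or number. The correction for length and GC content entered a loess surface over both as an offset for each library, with the GC content of the longest GENCODE transcript, known for 95.0% of the genes and set to the median for the rest. Some genes of the 2 other lists that passed as lower with the block are not reported here. The scripts were tested on simulated data. Of 100 genes changed by 1 on the log2 scale, edgeR called 58 without the block and 98 with it. Of 12410 unchanged genes, it called 0 and 16.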

Additional observations from a re-analysis of the deposited data

Results flagged for a closer look

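In a group of 4, a value far from the other 3 by Dixon's test was seen 7 times in the 96 sets of 4 libraries of the 48 genes, where chance gives about 1 in 20. In tdT-positive replicate 3 these were Psmb5 at 125 CPM (the next library at 99.0 CPM), Psmc5 at 156 CPM (138), Psmd6 at 99.0 CPM (90.6) and Psmg1 at 11.6 CPM (7.55). In tdT-negative replicate 3 it was Psmg1 at 14.8 CPM (8.79), so that both libraries of number 3 stood apart for Psmg1. In tdT-positive replicate 4 these were Psmb6 at 239 CPM (189) and Psmb7 at 153 CPM (134).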

How the results depend on the processing

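The number of proteasome genes that passed was 0 without the replicate block under each scaling, filter, threshold and test and without each single library. With the replicate block it was 1 (trimmed mean of M values, DESeq2 size factors, library totals, Rn45s and Lars2 removed, or limma voom), the call of Psmg1, 2 with upper-quartile factors, 6 with the DESeq2 Wald test, and 0 after correcting length and GC content. Without both libraries of number 1, 2 or 3 it was 0, without number 4 it was 18, and 2 after the correction as well, an alternative added after the data had been seen. Over all genes 3 passed, against 1998 with the replicate block, 1990 with it and DESeq2 size factors, 1418 with library totals, 1989 with upper-quartile factors, 1678 after the correction, 2005 without Rn45s and Lars2, 2504 with the DESeq2 Wald test and 2144 with limma voom. Without number 1, 2, 3 or 4 the block gave 1023, 347, 355 and 2535 genes, and 2256 after the correction without number 4. Without the block 921 genes passed in the DESeq2 Wald test, 216 with no filter, 524 at a threshold of 0.1, and 2 to 456 when single libraries were left out. Library totals with the block moved the share of higher genes among those called from 50.7% to 29.8%. Over the alternatives the median log2 fold change ranged from -0.23 to -0.027 for the core (-0.027 after the correction), from -0.37 to -0.075 for the immunoproteasome (without tdT-negative replicate 4 and replicate 3) and from -0.081 to 0.066 for the regulatory particle.

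Some single genes changed sign. Psmc1 (0.0022) was at -0.0021 with DESeq2 size factors and with the DESeq2 Wald test, -0.063 with library totals, -0.030 with upper-quartile factors, -0.068 and -0.025 with these and the replicate block, -0.078 with the block without number 4, and -0.0067 when 1 CPM in 4 libraries was required. Psmd2 (0.049) was at -0.026 with library totals, -0.027 with these and the block, and -0.0077 with the block without number 3. With the block, Psmd1 was at 0.030 without number 1, Psmd9 at 0.019 without number 3 and Psme3 at 0.0073 without number 4. After the correction Psmb3 was at 0.089 and Psmc6 at 0.0021, and without number 4 as well Psmb3 was at 0.061, Psmd2 at -0.0019, Psme3 at 0.0035 and Psmg2 at 0.083. Without single libraries, Psmc1 ranged from -0.081 to 0.058, Psmd1 from -0.056 to 0.0083, Psmd2 from -0.0039 to 0.088, Psmd9 from -0.086 to 0.077, Psme4 from -0.11 to 0.075, Psmb3 from -0.20 to 0.065 and Psmb5 from -0.28 to 0.0033. The cause was not tested.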
